A study of Arabidopsis thaliana with 18 samples.

Results

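The annexins of Arabidopsis thaliana, a family of calcium-dependent membrane-binding proteins, were followed in root RNA-seq of a control genotype and 2 isoprene-emitting lines with and without NaCl. The members were the 8 genes ANNAT1 to ANNAT8, taken by locus identifier from the 24532 genes of the deposited count table. All 8 were in the table, and 5 of them (ANNAT1, ANNAT2, ANNAT3, ANNAT4 and ANNAT7) passed the filter on low counts. The family was chosen because ANNAT3 counts had been seen to be low in line B2, so ANNAT3 in B2 is described here without a test. The tests were kept for the other members and for salt.

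Annexins bind acidic phospholipids when calcium rises, and several plant annexins have been linked to calcium-permeable channel activity at the plasma membrane. ANNAT1 is known for its part in the rise of cytosolic calcium in root epidermal cells under salt and peroxide, and ANNAT4 is known as a partner and target of the SOS2 kinase module that limits the same calcium signal. The transcription factor MYB30 is known to repress ANNAT1 and ANNAT4. ANNAT1 and ANNAT2 have been linked to the delivery of sugars to the root tip, and ANNAT5 is known from pollen.

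Stranded mRNA libraries from root RNA were read from both ends, 150 bases each. Lines C4 and B2 are each a single transgenic line carrying the isoprene synthase of Eucalyptus globulus under the promoter of RBCS1A, a small subunit gene of Rubisco that is active mainly in green tissue. The sample labels name the control WT, whereas the labels' protocols describe an empty vector line as the non-emitting control. NaCl was 0 or 150 mM by the sample labels. The protocols give lower NaCl concentrations for plate-grown seedlings, and neither the age at harvest nor the length of exposure of the sequenced roots is stated. There were 3 libraries each of WT, C4 and B2 without NaCl, 2 of WT at 150 mM, and 3 each of C4 and B2 at 150 mM, 17 in all. Whether each library came from its own plants or culture is not given, and p-values here may therefore reflect technical spread alone.

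The 17 libraries held 54233853 to 91527683 counted reads and 21291 to 21602 detected genes. Column 2 of WT without NaCl was left out because 24515 of its 24532 gene counts equalled those of library 1, where the next most alike pair shared 2993. The remaining WT libraries without NaCl keep the numbers 1, 3 and 4. All 10 root markers had a median of at least 1 CPM (counts per 1e6 counted reads), as did 5 of 8 green-tissue markers, 6 of 6 vascular markers and 3 of 4 root cap markers. Summed over the list, root markers lay between 7232 and 14492 CPM and green-tissue markers between 66.9 and 230.4 CPM. Medians of the green-tissue genes ran from 0.170 CPM (CAB2) to 46.8 CPM (RCA), with RBCS1A at 22.0 CPM and RBCS3B and CA1 at 0.283 and 0.216 CPM.

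Library 3 of B2 at 0 mM and library 2 of WT at 150 mM differed from the other libraries with their labels. ANNAT3 stood at 96.8 CPM in library 3 of B2 at 0 mM, against 0.457 to 1.36 CPM in the other 5 B2 libraries. MRD1 (AT1G53480), which lay between 0.0965 and 2.06 CPM in the other WT libraries and between 32.8 and 44.0 CPM in the other C4 and B2 libraries, was at 0.0499 CPM in library 3 of B2 at 0 mM and at 33.4 CPM in library 2 of WT at 150 mM. Both libraries are kept under their labels, and results that rest on them are given with and without them.

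ANNAT3 (AT2G38760) and ANNAT4 (AT2G38750) are neighbours on chromosome 2 (TAIR10). ANNAT3 spans chr2:16200944-16202669 on the plus strand and ANNAT4 spans chr2:16196265-16198832 on the minus strand, so they are transcribed away from each other with 2111 bases between them. The 250 bases upstream of each annotated start are shown because the levels of this pair moved together in WT and C4, and that of ANNAT1 because it had the highest level of the family. They are read 5′ to 3′ on the gene's own strand from the RefSeq TAIR10.1 genome, and capitals mark ACGTG, the core of the abscisic acid response element, on either strand.
ANNAT3, chr2:16200694-16200943, plus strand: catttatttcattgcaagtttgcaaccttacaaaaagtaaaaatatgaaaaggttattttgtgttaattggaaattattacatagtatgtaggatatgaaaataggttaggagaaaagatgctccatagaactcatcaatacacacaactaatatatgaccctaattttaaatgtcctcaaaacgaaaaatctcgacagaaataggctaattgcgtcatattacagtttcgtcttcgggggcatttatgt
ANNAT4, chr2:16198833-16199082, minus strand: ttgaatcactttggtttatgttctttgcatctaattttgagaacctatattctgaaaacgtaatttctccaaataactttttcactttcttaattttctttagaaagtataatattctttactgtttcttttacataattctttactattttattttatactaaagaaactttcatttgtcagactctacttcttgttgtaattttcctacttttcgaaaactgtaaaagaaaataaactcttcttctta
ANNAT1, chr1:13224918-13225167, plus strand: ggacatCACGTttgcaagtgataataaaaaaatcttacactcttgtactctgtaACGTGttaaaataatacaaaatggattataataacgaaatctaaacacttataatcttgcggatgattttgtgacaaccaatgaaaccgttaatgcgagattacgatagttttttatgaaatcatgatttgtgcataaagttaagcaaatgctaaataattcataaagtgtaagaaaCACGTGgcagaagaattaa
The letters ACGTG occurred on 1 or the other strand in 24.1% of the 21362 windows of tested genes, CCGAC (the core of the dehydration response element) in 12.7% and TTGAC (the core of the W-box) in 45.5%. The windows of ANNAT3 and ANNAT4 held none of these motifs. The ANNAT1 window held 4 ACGTG matches over both strands, 2 of which overlap in 1 palindrome of CACGTG, and neither of the other motifs. Of the members whose windows are not shown, ANNAT7 had 1 TTGAC match and the others had none of these motifs. A link between motifs and levels was not tested.

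The remaining members lie elsewhere. ANNAT1 (AT1G35720) spans chr1:13225168-13227239 on the plus strand, ANNAT2 (AT5G65020) chr5:25973804-25975726 on the plus strand, ANNAT5 (AT1G68090) chr1:25519305-25520895 on the minus strand and ANNAT8 (AT5G12380) chr5:4009168-4010687 on the plus strand. ANNAT6 (AT5G10220, chr5:3206868-3208830) and ANNAT7 (AT5G10230, chr5:3209497-3211483) are in tandem on the minus strand, 666 bases apart. Their coding sequences were identical at 85.7% of aligned bases, and the longest identical run was 60 bases, shorter than the reads. The coding sequences of ANNAT3 and ANNAT4 were identical at 51.6% of aligned bases, with a longest run of 12 bases. No pair of members had a longer identical run than ANNAT6 and ANNAT7.

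ANNAT1 was the most abundant annexin mRNA in roots. Levels of different genes were compared as TPM, in which counts are divided by the deposited gene length and scaled to the same total in each library. ANNAT1 ranked first and ANNAT2 second in all 17 libraries. ANNAT1 held 43.3 to 61.7% of the annexin TPM and ANNAT2 held 16.8 to 24.1%. ANNAT4 came next in 14 libraries and ANNAT7 in the other 3. In WT at 0 mM the mean TPM was 1222 ± 126 for ANNAT1, 418 ± 34.6 for ANNAT2, 204 ± 34.8 for ANNAT4, 135 ± 10.8 for ANNAT3 and 114 ± 9.02 for ANNAT7 (SD, n = 3). The ranges of ANNAT3 and ANNAT7 there, 122 to 142 TPM and 105 to 123 TPM, overlapped, whereas every other pair of neighbours in that order was apart. In WT and C4 ANNAT3 made up 5.30 to 12.1% of the annexin TPM.

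**Figure D1:**
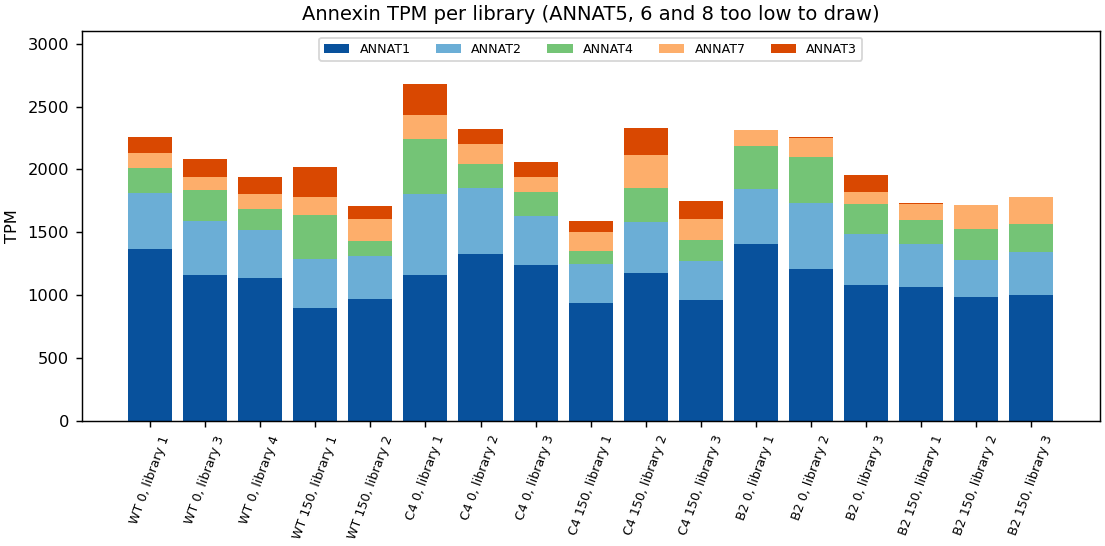
Stacked TPM of the 5 annexins that passed the filter, 1 bar per library, grouped by genotype and NaCl (mM). ANNAT1 forms the lowest and tallest block in every bar, and the ANNAT3 block at the top is too thin to see in 5 of the 6 B2 bars.

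ANNAT5, ANNAT6 and ANNAT8 were almost absent from these libraries. ANNAT5 had 10 reads in library 2 of WT at 150 mM, 6 in library 2 of C4 at 150 mM and 0 in the other 15 libraries. ANNAT6 had 4 reads in library 3 of WT at 0 mM, 2 in library 3 of B2 at 0 mM and 0 in the other 15. ANNAT8 was at 0 in 11 libraries and reached 16 reads, in library 2 of C4 at 150 mM. If reads were independent, a count of 0 would allow up to 3 reads, or 0.0328 to 0.0553 CPM at these depths. Each read of a pair was counted separately, so the actual limit is higher. Such a limit covers counting error only. In the 5 B2 libraries with low ANNAT3 the highest count among the 3 genes was 6 reads of ANNAT8, in library 2 at 150 mM.

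ANNAT3 mRNA was low in 5 of 6 B2 libraries and abundant in every WT and C4 library. The ANNAT3 level was 89.4, 101.6 and 99.7 CPM in WT at 0 mM, and 177.0 and 76.0 CPM in WT at 150 mM. In C4 it was 179.6, 89.0 and 84.8 CPM at 0 mM and 59.3, 161.8 and 99.9 CPM at 150 mM. In B2 it was 1.08, 1.36 and 96.8 CPM at 0 mM and 1.11, 0.822 and 0.457 CPM at 150 mM. Library 3 of B2 at 0 mM lay inside the WT and C4 range, and the other 5 B2 libraries lay below the lowest library of WT and C4 without overlap. Those 5 libraries still held 29 to 111 ANNAT3 reads each. In roots sequenced in bulk, fewer cells that express a gene and less RNA per cell cannot be told apart.

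The fitted log2 difference of ANNAT3 between B2 and WT was -7.29 at 150 mM, and between B2 and C4 it was -7.05. At 0 mM the fitted differences were -1.55 against WT and -1.83 against C4 with all libraries, and -6.31 and -6.59 without library 3 of B2. These differences describe the contrast that led to the choice of the family.

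**Figure D2:**
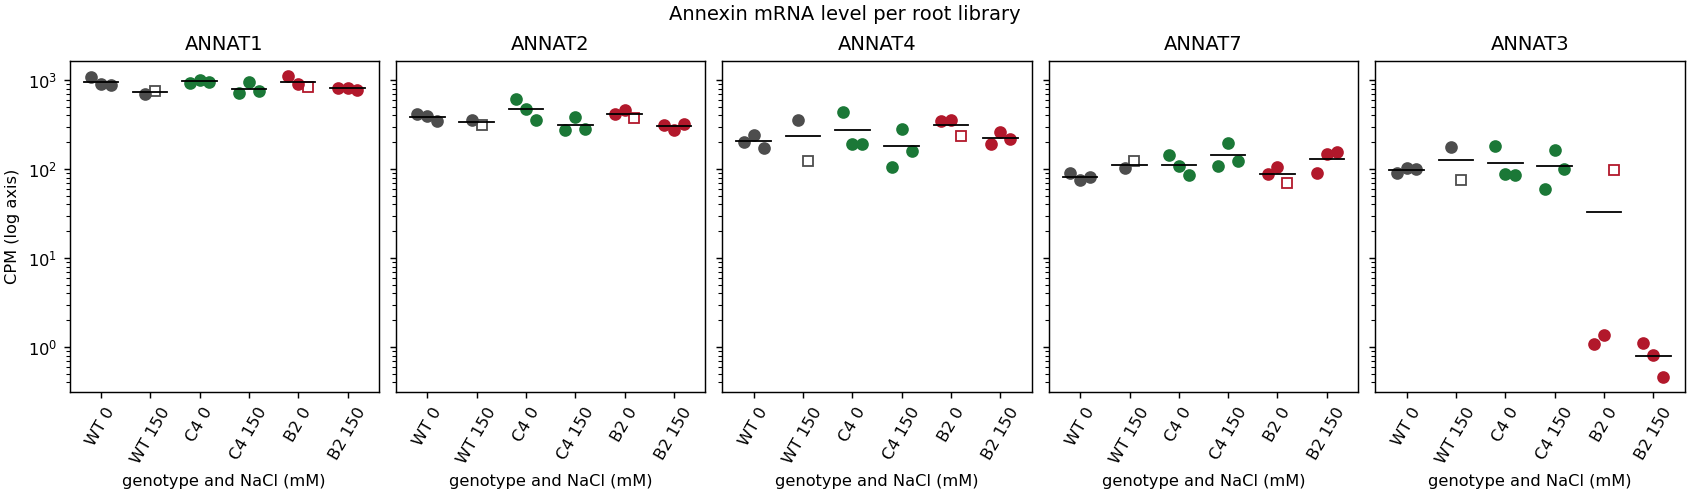
CPM of the 5 annexins on a common log axis, 1 point per library, by genotype and NaCl (mM), with a bar at the group mean. Open squares are library 3 of B2 at 0 mM and library 2 of WT at 150 mM. In the ANNAT3 panel 5 B2 libraries lie between 0.457 and 1.36 CPM and the open square of B2 at 96.8 CPM, and no other panel shows such a gap.

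The genes around the pair did not show the ANNAT3 pattern. The 10 nearest genes, 5 on each side, were all tested, and 0 of them had the range of the 5 B2 libraries outside the range of WT and C4. The share of all genes with ranges apart was not counted, so 0 of 10 cannot be read as a trait of this locus. A stricter split had all 5 B2 libraries more than 10-fold below the lowest WT or C4 library. It held for 1 of 18716 genes averaging 1 CPM or more, ANNAT3, so lacking that pattern does not mark the neighbours out. The 5 B2 libraries had been picked by their low ANNAT3, which left out library 3 at 0 mM. That ANNAT3 met this split was therefore set by the choice of libraries. None of the 10 neighbours passed the test in the 4 comparisons of B2 with WT or C4 (edgeR's quasi-likelihood test, adjusted p of at least 0.462). That outcome cannot set them apart from ANNAT3, since 0 of 21367 genes were called in these comparisons, ANNAT3 included. EMB2765 (AT2G38770), the next gene beyond ANNAT3, lay at 48.1 to 71.7 CPM in the 5 B2 libraries and at 44.3 to 84.5 CPM in WT and C4. AT2G38740, the next gene beyond ANNAT4, lay at 55.3 to 70.1 CPM and at 59.3 to 79.4 CPM.

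ANNAT4 mRNA was present in every B2 library. Its level was 203, 239 and 171 CPM in WT at 0 mM and 352 and 123 CPM in WT at 150 mM. In C4 it was 442, 189 and 190 CPM at 0 mM and 104, 286 and 161 CPM at 150 mM. In B2 it was 348, 359 and 237 CPM at 0 mM and 193, 261 and 220.0 CPM at 150 mM. The ranges of all 3 genotypes overlapped at 150 mM. At 0 mM B2 overlapped C4 and, through library 3 alone, WT.

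Within WT and C4, ANNAT3 and ANNAT4 varied together from library to library. The 3 libraries with the most ANNAT4, library 1 of C4 at 0 mM, library 1 of WT at 150 mM and library 2 of C4 at 150 mM, were also the 3 with the most ANNAT3. Over these 11 libraries, a subset chosen after the data were seen, Pearson's r of log2 CPM was 0.936 and Spearman's rho 0.845. Without the 2 libraries farthest from the median of ANNAT3, r was 0.867. Within the 6 libraries at 0 mM, r was 0.941 and rho 0.600, and r was 0.228 after leaving out the 2 farthest, so that value rests on those libraries. Among 18715 genes ANNAT4 ranked second for likeness to ANNAT3, after AT1G63010 (r = 0.956), and ANNAT3 ranked first for ANNAT4. These correlations describe libraries that differ in NaCl and genotype and carry no p-value.

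The ratio of ANNAT3 to ANNAT4 in CPM lay between 0.406 and 0.621 in the 11 WT and C4 libraries and was 0.408 in library 3 of B2 at 0 mM. In the other 5 B2 libraries it lay between 0.00208 and 0.00578. In C4 the ratio was 0.406, 0.470 and 0.447 at 0 mM and 0.568, 0.567 and 0.621 at 150 mM, without overlap. In WT it was 0.440, 0.426 and 0.583 at 0 mM and 0.503 and 0.619 at 150 mM, with overlap. The ratio was not tested.

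**Figure D3:**
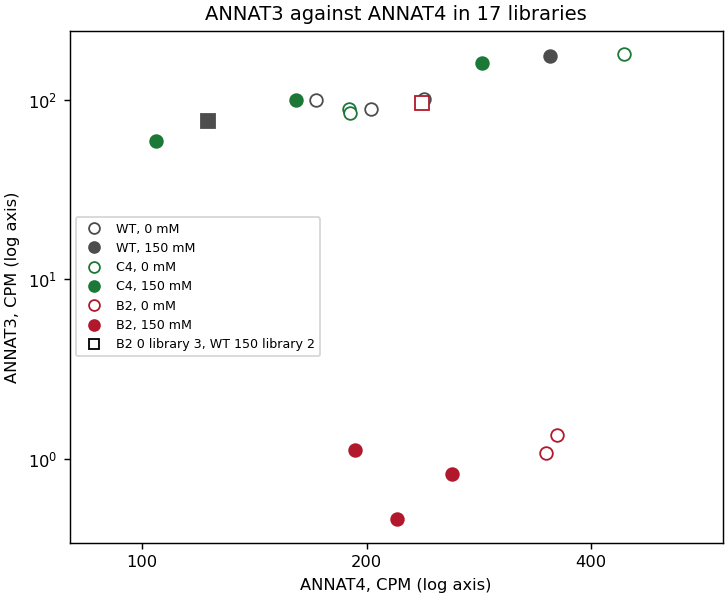
ANNAT3 against ANNAT4, both in CPM on log axes, 1 point per library, coloured by genotype, open without NaCl and filled at 150 mM. Squares are library 3 of B2 at 0 mM and library 2 of WT at 150 mM. The 11 WT and C4 libraries and the B2 square form 1 band, and the other 5 B2 libraries lie at 0.457 to 1.36 CPM of ANNAT3 with ANNAT4 between 193 and 359 CPM.

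Over all 17 libraries ANNAT3 differed mainly between the 5 low B2 libraries, at 0.457 to 1.36 CPM, and the rest. Likeness over these libraries therefore largely follows the contrast that led to the choice of the family. The genes most like ANNAT3 there were AT1G67325 (r = 0.820), AT1G79210 (0.795), AT1G51730 (0.793), GEM (0.778) and ADK1 (0.776). The most opposite were AT1G47970 (r = -0.892), AT5G24240 (-0.816), ESD4 (-0.814), DFL2 (-0.788) and AT5G01290 (-0.751). Their own spans were far narrower than that of ANNAT3. AT5G24240 lay at 6.39 to 11.4 CPM in the 5 B2 libraries and at 4.03 to 6.90 CPM in WT and C4, with overlap. AT1G67325 lay at 25.1 to 28.2 CPM in the 5 B2 libraries and at 29.3 to 36.4 CPM in WT and C4, and AT1G47970 at 103.0 to 129 CPM and at 78.5 to 97.7 CPM. For ANNAT1 the most alike genes were AT2G16660 (r = 0.919), GSTU20 (0.908) and AT3G57780 (0.891), and for ANNAT4 TOM1 (0.870), CYP705A12 (0.868) and SQP2 (0.834).

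The comparison of B2 with WT and C4 asks whether other annexins were higher where ANNAT3 was low. At 0 mM the B2 group also holds library 3, where ANNAT3 was at 96.8 CPM. With 1 library left out in turn, the log2 difference of B2 from WT at 0 mM was -0.12 to 0.10 for ANNAT1 and 0.035 to 0.19 for ANNAT2. It was 0.51 to 0.79 for ANNAT4 and -0.057 to 0.24 for ANNAT7. None of the 4 tested members other than ANNAT3 passed the test in B2 against WT or in B2 against C4, at 0 or at 150 mM. By edgeR's quasi-likelihood test with Benjamini-Hochberg adjustment over 21367 genes, 0 genes were called in these 4 comparisons, a background of 0.0%. At an unadjusted p under 0.05 there were 315 genes for B2 against WT at 0 mM and 2154 at 150 mM, 272 for B2 against C4 at 0 mM and 1404 at 150 mM, with none of these 4 members among them. DESeq2 called 0, 27, 1 and 90 genes in the same order, and none of the 4 members. Without library 3 of B2 at 0 mM, edgeR called 4 genes against WT and 1 against C4 at 0 mM, again none of the 4 members. The count for B2 against WT at 150 mM rested on library 2 of WT, since 495 genes (2.28%) were called without it and 544 (2.5%) without both libraries that went against their labels, and none of the 4 members was among them.

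ANNAT1, the most abundant annexin, had the narrowest intervals. Its level was 1108, 914 and 841 CPM in B2 at 0 mM, overlapping the 880 to 1079 CPM of WT and the 920 to 1014 CPM of C4. At 150 mM it was 825, 807 and 783 CPM in B2, against 706 and 759 CPM in WT and 711, 952 and 746 CPM in C4. B2 overlapped C4 and lay above both WT libraries. The log2 difference of B2 from WT was 0.00 (95% interval -0.31 to 0.31) at 0 mM and 0.14 (-0.21 to 0.48) at 150 mM. From C4 it was -0.02 (-0.32 to 0.29) and 0.00 (-0.31 to 0.31).

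ANNAT2 overlapped between the genotypes at both concentrations. It stood at 412, 463 and 378 CPM in B2 at 0 mM, against 416, 392 and 348 CPM in WT and 605, 470.3 and 356 CPM in C4. At 150 mM it was 310.3, 278 and 321 CPM in B2, 355 and 314 CPM in WT, and 277, 386 and 286 CPM in C4. The log2 difference of B2 from WT was 0.12 (95% interval -0.26 to 0.49) at 0 mM and -0.14 (-0.56 to 0.28) at 150 mM. From C4 it was -0.19 (-0.57 to 0.18) and -0.06 (-0.43 to 0.32).

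ANNAT4 had the widest intervals. B2 differed from WT by a log2 of 0.63 (95% interval -0.28 to 1.53) at 0 mM and -0.08 (-1.08 to 0.92) at 150 mM, and from C4 by 0.20 (-0.70 to 1.102) and 0.29 (-0.61 to 1.19). Without the 2 libraries that went against their labels, the difference from WT was 0.79 at 0 mM, which did not pass the test. At 150 mM it was -0.67, with library 1 as the only WT library left. The interval against WT at 0 mM and those against C4 at 0 and 150 mM include a rise of more than 2-fold.

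ANNAT7 stood at 88.4, 104 and 69.4 CPM in B2 at 0 mM, against 89.3, 74.4 and 81.9 CPM in WT and 143, 108 and 85.7 CPM in C4. At 150 mM it was 90.5, 146 and 154 CPM in B2, 102 and 122 CPM in WT, and 109, 194 and 124 CPM in C4, and all genotypes overlapped. The log2 difference of B2 from WT was 0.09 (95% interval -0.43 to 0.61) at 0 mM and 0.21 (-0.37 to 0.80) at 150 mM. From C4 it was -0.36 (-0.88 to 0.16) and -0.13 (-0.65 to 0.39).

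**Figure D4:**
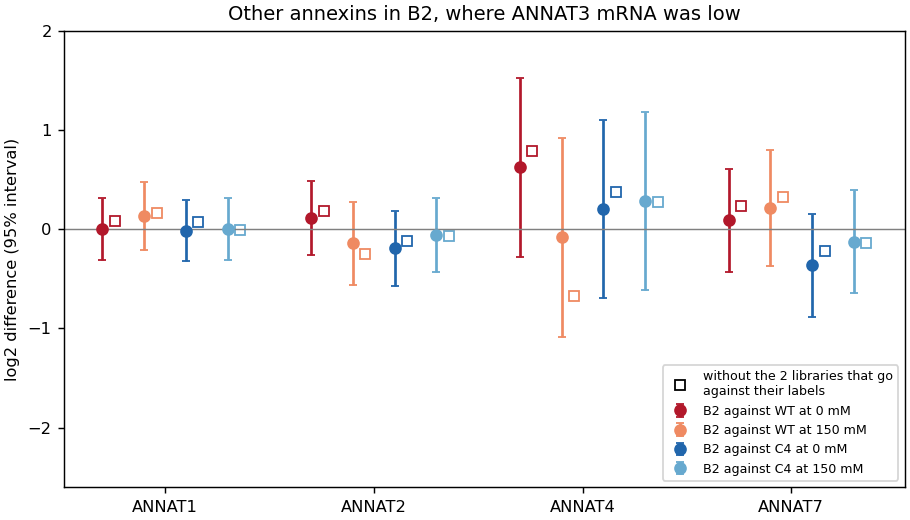
Log2 difference of B2 from WT and from C4 at each NaCl concentration for the 4 tested annexins other than ANNAT3. Circles with bars are edgeR estimates with 95% intervals from 17 libraries, and open squares are estimates without library 3 of B2 at 0 mM and library 2 of WT at 150 mM. Every interval includes 0, and those of ANNAT4 are the widest, from -1.08 to 1.53 in all.

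Summed over the family without ANNAT3, the level in B2 at 0 mM was 2311, 2253 and 1822 TPM, against 2135, 1939 and 1802 TPM in WT and 2436, 2200 and 1939 TPM in C4. The 2 B2 libraries with low ANNAT3 lay above all 3 WT libraries and inside the C4 range, and library 3 of B2, with ANNAT3 at the level of WT, lay inside the WT range. The B2 mean at 0 mM was therefore 2129 ± 267 TPM with library 3 (SD, n = 3) and 2282 ± 41.2 TPM without it (n = 2), beside 1959 ± 168 TPM in WT and 2192 ± 249 TPM in C4 (n = 3 each). At 150 mM the sum was 1743 ± 32.6 TPM in B2 (n = 3) and 1743 ± 325 TPM in C4 (n = 3). In WT at 150 mM it was 1691 ± 123 TPM (n = 2), and 1778 TPM in library 1 alone. The sum was not tested.

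C4, the other isoprene line, passed the test against WT in no tested member. Of 5 members, 0 passed the test against WT at 0 mM or at 150 mM, beside a background of 0.0% of 21367 genes in each (edgeR, with 868 and 1377 genes and none of the members at an unadjusted p under 0.05, and 7 and 55 genes by DESeq2). The median log2 difference of the 5 members was 0.31 at 0 mM and -0.08 at 150 mM, and that of all genes was close to 0 in both. ANNAT3 in C4 had a log2 difference from WT of 0.28 (95% interval -2.11 to 2.67) at 0 mM and -0.24 (-2.89 to 2.41) at 150 mM. The ANNAT3 intervals come from a fit that also holds the B2 libraries, whose ANNAT3 level at 0 mM was 33.1 ± 55.2 CPM (SD, n = 3).

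Salt shifted 3 of the 4 tested members other than ANNAT3 when averaged over genotypes. ANNAT1 and ANNAT2 fell and ANNAT7 rose at 150 mM, and ANNAT4 did not pass the test. The ANNAT7 call rested on library 2 of WT at 150 mM, as given below. The background was high, since 42.1% of 21367 genes were called in that comparison, 21.5% higher and 20.5% lower. All changes were below 1.5-fold in size.

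ANNAT1 fell by 0.30 ± 0.09 on the log2 scale (SE, edgeR adjusted p = 0.0130), to a fold of 0.814. In WT it was at 1079, 896 and 880 CPM at 0 mM and at 706 and 759 CPM at 150 mM. In C4 it was at 920, 1014 and 959 CPM without NaCl and at 711, 952 and 746 CPM with it. Its B2 values, given above, and its WT values did not overlap between the NaCl concentrations, and those of C4 overlapped through library 2 at 150 mM. In single genotypes the log2 change was -0.38 ± 0.16 (WT), -0.26 ± 0.15 (C4) and -0.25 ± 0.15 (B2), with edgeR adjusted p of 0.128, 0.265 and 0.255.

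ANNAT2 fell by 0.42 ± 0.11 on the log2 scale (SE, edgeR adjusted p = 0.0051), to a fold of 0.747. In B2 all 3 libraries at 150 mM lay below the 3 at 0 mM, while in WT and in C4 the concentrations overlapped. In C4 alone the log2 change was -0.59 ± 0.18 (edgeR adjusted p = 0.0391), the single call within 1 genotype among the members tested there. That call was lost when the C4 libraries were fitted alone and when any of 6 libraries was left out, with adjusted p up to 0.202, among them library 1 of C4 at 0 mM, without which the change was -0.39. In WT the change was -0.20 ± 0.20 and in B2 -0.46 ± 0.18, with adjusted p of 0.528 and 0.0833.

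ANNAT7 rose by 0.46 ± 0.15 on the log2 scale (SE, edgeR adjusted p = 0.0200), a fold of 1.37. Both WT libraries at 150 mM lay above the 3 at 0 mM, and in C4 and B2 the concentrations overlapped. By genotype the change was 0.46 ± 0.27 (WT), 0.34 ± 0.24 (C4) and 0.58 ± 0.25 (B2), with adjusted p of 0.267, 0.407 and 0.116. The averaged call rested on library 2 of WT at 150 mM, since without it the change was 0.42 with an adjusted p of 0.0607, and without both libraries that went against their labels 0.37 with an adjusted p of 0.102, where 36.3% of genes were called.

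ANNAT4 changed by -0.28 ± 0.25 on the log2 scale averaged over genotypes (edgeR adjusted p = 0.394), with 0.22 ± 0.47 (WT), -0.58 ± 0.42 (C4) and -0.49 ± 0.42 (B2). The 2 WT libraries at 150 mM, at 352 and 123 CPM, lay on either side of all 3 WT libraries at 0 mM. ANNAT3 was tested for salt in WT and C4, where its log2 change was 0.38 ± 1.23 and -0.14 ± 1.11 with edgeR adjusted p of 0.870 and 0.954. The fit also holds the B2 libraries. The 95% intervals, -2.26 to 3.03 in WT and -2.52 to 2.25 in C4, are too wide to exclude large changes. The WT and C4 values of ANNAT3 overlapped between the concentrations.

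Within single genotypes, 0 of 5 members were called in WT, 1 of 5 in C4 and 0 of 4 in B2, beside 16.6%, 12.1% and 16.2% of all genes by edgeR. At an unadjusted p under 0.05 there were 1 of 5 members in WT, 1 of 5 in C4 and 2 of 4 in B2, beside 6694, 5724 and 7006 of the 21367 genes. DESeq2 called 1 of the 4 in B2, ANNAT2, beside 22.2% of genes. The salt response of no member differed between C4 and WT or between B2 and WT by the interaction term (edgeR, 0 of 5 and 0 of 4 members, 0.0% of genes, with 775 and 967 genes and none of these members at an unadjusted p under 0.05, and 6 and 1 genes by DESeq2).

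**Figure D5:**
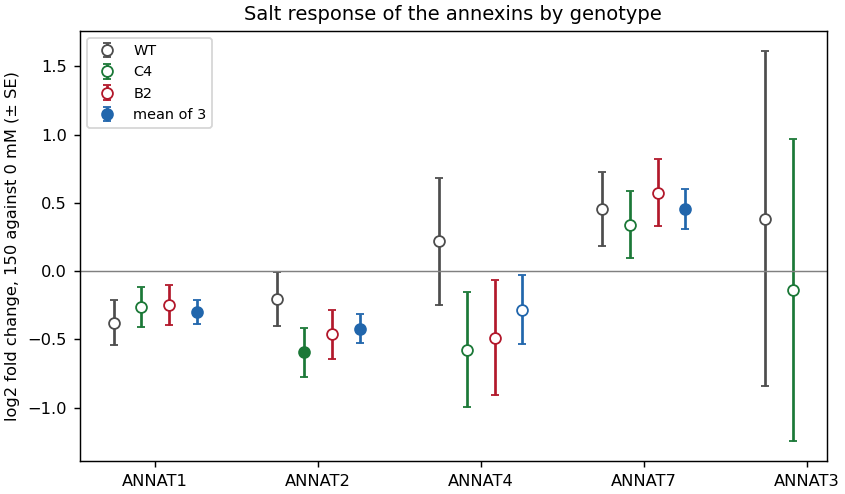
Log2 fold change at 150 against 0 mM NaCl, with its SE, for each annexin in WT, C4 and B2 and as the mean of the 3 genotypes. Filled circles passed an edgeR adjusted p of 0.05, and ANNAT3 is shown for WT and C4 alone. ANNAT1 and ANNAT2 lie below 0 and ANNAT7 above 0 in every genotype, with the mean filled for these 3.

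The summed levels of the vascular and root markers are given by NaCl concentration and were not tested. The 6 vascular markers summed to 232 to 331 CPM in WT at 0 mM and 364 to 397 CPM at 150 mM, to 248 to 283 and 316 to 323 CPM in C4, and to 204 to 282 and 273 to 335 CPM in B2. The 10 root markers summed to 9223 to 13777 CPM in WT at 0 mM and 7232 to 8495 CPM at 150 mM, to 11412 to 12598 and 8729 to 9921 CPM in C4, and to 9191 to 14492 and 9710 to 11593 CPM in B2. PYK10, a beta-glucosidase of root ER bodies, made up most of the root sum, with a median of 10333 CPM. In WT and C4 neither sum overlapped between the concentrations, while in B2 both did. Their part in the annexin changes was not tested. No vascular or root marker was at 0 in any library.

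Of 26 listed genes of calcium and salt signalling, all of which were tested, 8 rose and 6 fell averaged over genotypes and 12 did not pass the test, beside 21.5% higher and 20.5% lower among all genes. Without the 2 libraries that went against their labels 6 rose and 6 fell, beside 18.5% and 17.8% of all genes. The median log2 change of the list was 0.08 and that of all genes -0.01. CNGC2, a cyclic nucleotide-gated calcium channel, rose by a log2 of 1.88 ± 0.20 (edgeR adjusted p = 8.42e-06). SNRK2.6, the OST1 kinase of abscisic acid and cold signalling, which is known to phosphorylate ANNAT1, rose by 1.24 ± 0.12 (edgeR adjusted p = 3.83e-06). CBL9, a calcium sensor of the calcineurin B-like family, rose by 0.74 ± 0.08 (edgeR adjusted p = 9.03e-06), and ACA11, a calcium pump of the vacuole, fell by 0.93 ± 0.13 (edgeR adjusted p = 5.21e-05). These 4 averaged calls held in all 22 alternative fits.

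Of the 3 named genes of the SOS pathway 1 was called, beside 42.1% of all genes, so that count does not stand out. SOS3, also on the list, was not among the named genes. SOS2, the kinase that acts on ANNAT4 and on the sodium antiporter SOS1, rose by 0.29 ± 0.09 (edgeR adjusted p = 0.0142), a call lost without library 2 of WT at 150 mM and without both libraries that went against their labels (adjusted p up to 0.118). SOS1 changed by 0.14 ± 0.11 (edgeR adjusted p = 0.354) and CBL10, the calcium sensor that works with SOS2, by 0.02 ± 0.26 (0.958) from a mean level of 0.707 CPM. MYB30 changed by -0.32 ± 0.15 over the genotypes (edgeR adjusted p = 0.0922). It fell by 1.04 ± 0.28 in WT (edgeR adjusted p = 0.0201), a call lost when the WT libraries were fitted alone and without library 1 of WT at 0 mM or library 1 of WT at 150 mM (adjusted p up to 0.199). In WT ANNAT1 and ANNAT4 did not pass the test. The MYB30 change was 0.16 ± 0.24 (C4) and -0.08 ± 0.24 (B2). In the comparisons of genotypes 0 of the 26 genes were called by edgeR, with up to 4 at an unadjusted p under 0.05.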

How the data were processed

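Root mRNA libraries were sequenced in pairs of 150-base reads. The values deposited are raw counts, produced by the authors with featureCounts 2.0.3 from exons of Araport11 genes (strand setting 2, minimum mapping quality 10), each read of a pair counted separately, per the file headers. FastQC 0.12.1, fastp, STAR 2.7.11a and TAIR10 are named in the submitters' processing notes. Gene spans equalled the RefSeq annotation for 99.7% of 24528 matched genes. The gene length column, deposited by the authors, served for TPM.

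From the counts, edgeR 4.0.16 (R 4.3.3; TMM scaling, filterByExpr, robust quasi-likelihood fit, 1 mean per group over 17 libraries) gave log2 fold changes, SE, 95% intervals and p-values adjusted by Benjamini-Hochberg over 21367 genes, called under 0.05. CPM used TMM-scaled totals, and correlations used log2 CPM with a prior count of 2. The fits were tested on simulated data. DESeq2 1.42.0 was the other tool. At the lowest depth 1 CPM is 54 reads, so counting error is small for the 5 tested members, apart from ANNAT3 in B2. In the 5 B2 libraries with low ANNAT3 its count was 29 to 111 reads, and counting error is larger there.

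The family, the calcium list and the markers were chosen with earlier results of these data known. All annexins were named. From the calcium list the 4 with the lowest adjusted p for salt over the genotypes were named, with SOS1, SOS2, CBL10 and MYB30 always. Neighbours were the 5 genes on either side of the ANNAT4 and ANNAT3 pair. Genes most like ANNAT3 (5 highest and 5 lowest r), ANNAT1 and ANNAT4 (3 highest) were ranked among tested genes averaging 1 CPM or more. Alternatives were DESeq2 size factors, no low-count filter, DESeq2, fitting the compared groups alone, keeping WT library 2 and leaving out each library. Leaving out both libraries that went against their labels was chosen after seeing the data. Protein sequences were not used here.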

Additional observations from a re-analysis of the deposited data

How the results depend on the processing

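ANNAT1 and ANNAT2 kept their averaged fall with salt in all 22 alternatives, with log2 changes of -0.34 to -0.26 and -0.48 to -0.35, and ANNAT7 lost its call in the 2 alternatives named in the report. No member other than ANNAT3 was called for B2 against WT or C4 in any of the 23 there. For the average over genotypes, fitting the compared groups alone is the same fit and is not counted. No paired analysis was possible because the labels give the groups no shared replicate numbers. Depth limits ANNAT5, ANNAT6 and ANNAT8, and 2 or 3 libraries a group limit the rest. The cause of the changes below was not tested.

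Fitting the compared groups alone gave 992 genes and 2 calcium genes for salt in WT, 0 annexins and 7 calcium genes for salt in C4, and 1 gene each for B2 against WT and against C4 at 150 mM. DESeq2 gave 7 calcium genes for salt in C4, 1 annexin for salt in B2, 7 and 55 genes for C4 against WT at 0 and 150 mM, 27 for B2 against WT at 150 mM, 1 and 90 for B2 against C4 at 0 and 150 mM, and 6 and 1 for the interactions of C4 and B2. Without both libraries that went against their labels the counts were 1438 genes and 5 calcium genes for salt in B2, 3 and 78 genes for C4 against WT at 0 and 150 mM, 4 and 544 for B2 against WT, 1 and 2 for B2 against C4, and 2 and 54 for the interactions of C4 and B2.

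Leaving out 1 library gave 330 to 4540 genes for salt in WT, lowest without library 1 of WT at 150 mM, 1310 to 2951 in C4 and 703 to 5728 in B2. Calcium genes called ranged from 0 to 11 in WT, from 2 to 5 in C4 and from 3 to 10 in B2, and annexins from 0 to 1 in C4 and from 0 to 1 in B2. Genotype counts ranged from 0 to 2 and from 0 to 56 for C4 against WT at 0 and 150 mM, from 0 to 4 and from 0 to 495 for B2 against WT, from 0 to 1 and from 0 to 37 for B2 against C4, and from 0 to 8 and from 0 to 95 for the interactions of C4 and B2, with the 495, 56 and 95 found without library 2 of WT at 150 mM. Calcium genes ranged from 0 to 1 for B2 against WT at 150 mM.

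The 58 sign changes of annexins over the 12 comparisons were all between log2 values that missed the threshold. For B2 against WT at 0 mM, ANNAT1 was -0.044 with WT library 2 kept and ranged from -0.12 to 0.10 with 1 library left out, and ANNAT7 from -0.057 to 0.24. For B2 against C4 at 0 mM, ANNAT1 was 0.071 without both libraries and ranged from -0.13 to 0.071, and ANNAT2 from -0.36 to 0.013. For B2 against C4 at 150 mM, ANNAT1 was -0.0047 without a low-count filter, -0.012 with the compared groups alone and -0.0046 without both libraries, and ranged from -0.076 to 0.14, ANNAT2 from -0.15 to 0.11 and ANNAT7 from -0.29 to 0.17. ANNAT4 ranged from -0.67 to 0.87 for B2 against WT at 150 mM and from -0.74 to 0.80 for salt in WT. ANNAT3 ranged from -0.35 to 0.88 for salt in WT and from -0.57 to 0.30 for salt in C4. For C4 against WT at 0 mM, ANNAT1 was -0.028 with WT library 2 kept and ranged from -0.041 to 0.12, ANNAT3 from -0.16 to 0.47 and ANNAT4 from -0.11 to 0.62. For C4 against WT at 150 mM, ANNAT1 ranged from -0.0084 to 0.21, ANNAT2 from -0.25 to 0.014, ANNAT3 from -0.74 to 0.50 and ANNAT4 from -0.95 to 0.59. For the interaction of C4, ANNAT7 was 0.011 without both libraries and ranged from -0.41 to 0.092, ANNAT1 from -0.028 to 0.19, ANNAT3 from -1.02 to 0.22 and ANNAT4 from -1.37 to 0.17. For the interaction of B2, ANNAT4 ranged from -1.30 to 0.24 and ANNAT7 from -0.034 to 0.32.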
